A study of Mus musculus with 30 samples.

Results

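The genes described here are 10 negative-feedback regulators of cytokine and MAP kinase signalling, chosen by gene symbol. They are 4 members of the suppressor of cytokine signalling family (Socs1, Socs2, Socs3 and Cish) and 6 dual-specificity phosphatases (Dusp1, Dusp2, Dusp4, Dusp5, Dusp6 and Dusp16). The symbols matched 10 of the 25611 gene rows of the count table, and all 10 were among the 14808 genes that passed the filter on low counts. RNA was sequenced from mouse bone marrow-derived dendritic cells (BMDCs) grown with FLT3L, the growth factor that drives dendritic cell development, at 200 ng/ml. The labels give days 6 to 7 of culture for every library, with no day for a single library. The cells came from Rubcn KO mice or from wild-type (WT) mice. Rubcn encodes Rubicon, a protein needed for LC3-associated phagocytosis, in which engulfed cargo is handled with part of the autophagy machinery. Cells of each genotype were left untreated, were given the soluble protein ovalbumin (OVA), or were fed apoptotic cells of Jurkat, an established human line from a T-cell leukaemia. Each treatment lasted 30 min or 4 h. That makes 10 groups of 3 libraries, 30 in all. All 10 groups share the FLT3L culture, and the treated groups of a genotype share 1 untreated group. The KO allele, the number of mice and whether libraries came from separate mice or cultures are not given in the labels, so p-values measure only the spread between these libraries.

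SOCS proteins are made when cytokine receptors activate JAK kinases and STAT transcription factors, and they then bind the receptors or the JAKs and stop the signal. The dual-specificity phosphatases described here remove both activating phosphates from the MAP kinases ERK, JNK and p38, and most of them are themselves made in response to MAP kinase activity. In dendritic cells and macrophages both families are known as early and delayed response genes that limit cytokine production after contact with microbial products, cytokines or dying cells.

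Promoter letters are shown first, for the members whose window held a motif known for cytokine or immediate-early induction. Windows of 250 bases before to 50 bases after the annotated start came from RefSeq on GRCm38.p6, and 8 of the 10 members had one (all but Socs2 and Dusp4). Capitals mark the motif matches, and positions are counted from the annotated start. The Cish stretch (chr9:107296619-107296683, plus strand) holds a pair of STAT-type GAS motifs, TTCNNNGAA, at bases 1 to 9 and 12 to 20. The Socs3 stretch (chr11:117969472-117969560, minus strand) holds 1 GAS motif at bases -154 to -146. The Socs1 stretch (chr16:10785564-10785659, minus strand) holds a pair of overlapping interferon response motifs (ISRE, searched as GAAA and GAAA with any 2 bases between them) from base -83 to base -68. The Dusp1 stretch (chr17:26508568-26508655, minus strand) holds 1 cyclic AMP response motif (CRE, TGACGTCA) at bases -143 to -136. The Dusp5 stretch (chr19:53529023-53529122, plus strand) holds a pair of adjoining CArG boxes, the serum response factor motif, from base -82 to base -63.
Cish: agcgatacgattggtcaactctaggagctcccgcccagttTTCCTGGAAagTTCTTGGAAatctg
Socs3: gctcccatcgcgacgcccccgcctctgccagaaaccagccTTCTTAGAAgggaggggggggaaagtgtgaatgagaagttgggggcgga
Socs1: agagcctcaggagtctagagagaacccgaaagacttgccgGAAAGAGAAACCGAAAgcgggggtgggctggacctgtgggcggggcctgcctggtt
Dusp1: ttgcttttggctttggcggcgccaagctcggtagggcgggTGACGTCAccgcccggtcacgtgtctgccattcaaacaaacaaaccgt
Dusp5: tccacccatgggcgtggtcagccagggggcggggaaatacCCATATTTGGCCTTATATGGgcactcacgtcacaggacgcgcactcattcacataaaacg

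Both strands were searched. Among all 32851 RefSeq windows of the same length, GAS was found in 8.30%, the ISRE motif in 3.44%, CRE in 1.79% and the CArG box in 1.63%. The AP-1 motif TGANTCA (7.81% of windows) and the NF-kB motif (4.51%) were searched too and had no match in the 8 windows. The Dusp2, Dusp6 and Dusp16 windows held none of the 6 motifs. The start used for Dusp5 lies 173 bases upstream of the start in the count table, while the other 7 starts are the same. A match describes the letters only.

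The shallowest library, replicate 3 of the KO 30 min OVA group, held 9.73 M counts, and the other 29 held 38.7 M to 51.6 M. Levels are in CPM, a gene's count scaled to the size of its library with TMM factors. Cish rested on the fewest reads, 18 to 32 counts in the untreated WT libraries, and the shallowest library held 15 counts of Socs1. The targeted gene, Rubcn, was lower in KO than in WT under every condition with no overlap of libraries, but reads remained: untreated WT libraries held 95.6, 96.6 and 105 CPM and untreated KO libraries 70.4, 72.2 and 75.8 CPM. The labels do not say which part of Rubcn is deleted, and the total over the gene shows no more than this. All 14 dendritic cell markers on the list used were tested, with summed levels of 18466 to 32359 CPM per library. Replicate 2 of the KO 4 h Jurkat group stood apart from its group: counts of its pairs differed with a chi-square of 129 and 134 per gene, against 2.28 to 16.6 in all other replicate pairs. Results of the 4 h Jurkat comparisons are also given without it. In RNA from whole cultures, fewer cells of a type and less RNA per cell cannot be told apart.

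In untreated WT cells the 10 genes differed widely in level. Per kilobase of exon (lengths from GENCODE M21), Dusp6 stood highest at 28.9 ± 1.67 CPM per kb (SD, n = 3). Dusp2 (12.7 ± 0.859), Dusp5 (11.8 ± 1.06) and Dusp1 (11.2 ± 0.752 CPM per kb) came next and lay within about 1 SD of their neighbours. Dusp16 (6.38 ± 0.142) and Socs3 (6.05 ± 0.475 CPM per kb) were likewise close to each other. Socs2 was at 4.09 ± 0.379, Socs1 at 1.02 ± 0.0683, Dusp4 at 0.857 ± 0.0340 and Cish at 0.157 ± 0.0412 CPM per kb. After 4 h with apoptotic Jurkat cells the order in WT cells was another one. Dusp2 led at 285 ± 6.94 CPM per kb, followed by Socs3 at 141 ± 3.51, Dusp5 at 96.4 ± 5.03 and Dusp1 at 68.5 ± 1.43. Dusp6 had moved from the first place to the eighth, at 9.35 ± 0.301 CPM per kb. Dusp4 (6.28 ± 0.151) and Cish (6.20 ± 0.370 CPM per kb) were lowest and did not differ beyond their spread.

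**Figure D1:**
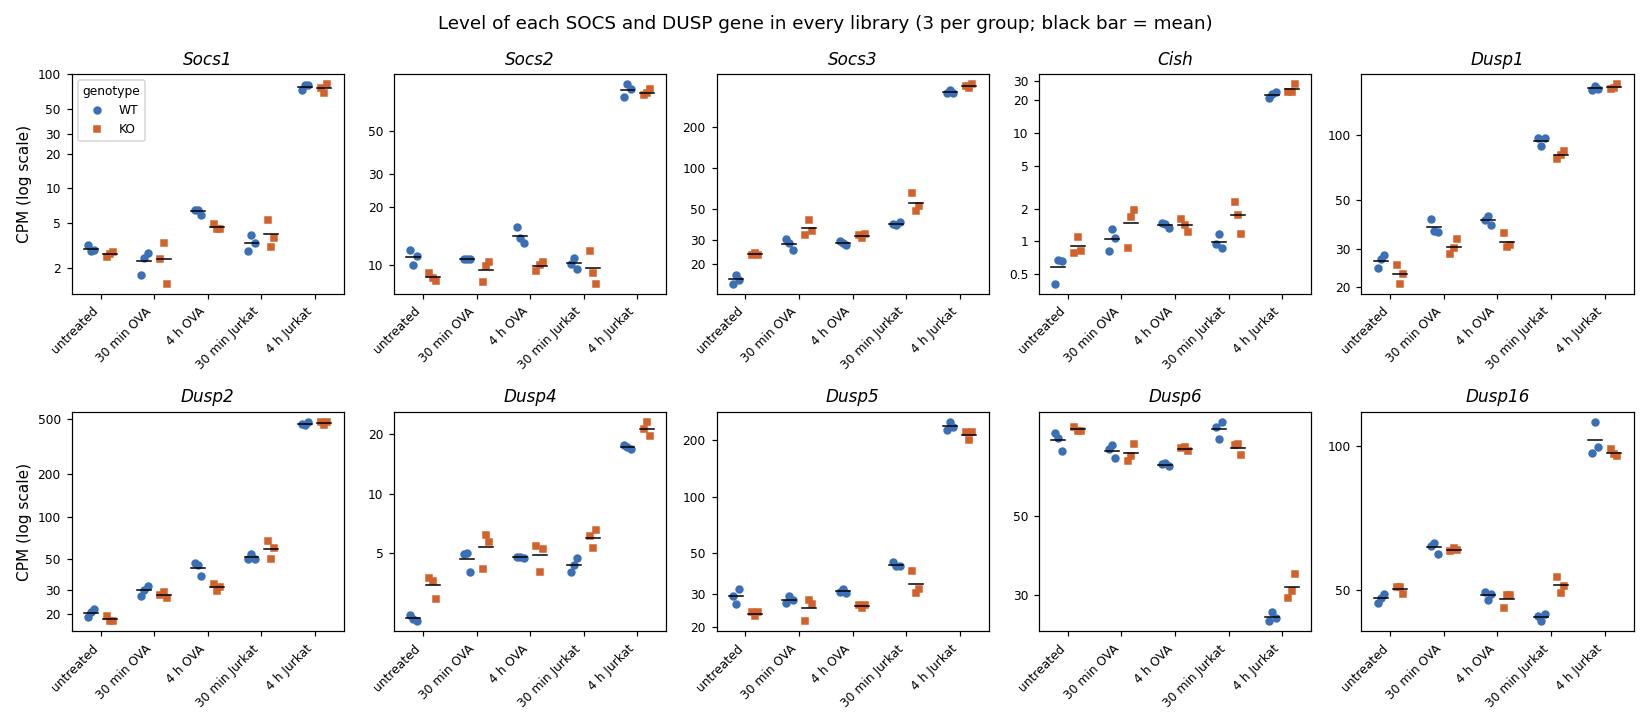
Level of the 10 genes in each of the 30 libraries, in CPM on a log axis; blue circles are WT and orange squares KO libraries, and black bars are means of 3. Under 4 h Jurkat all 6 libraries lie above every other library in 9 panels and below every other library in the Dusp6 panel. The share of all tested genes separated in this way was not counted.

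The largest differences came after 4 h with apoptotic Jurkat cells, where 9 of the 10 genes rose and Dusp6 fell, in WT and in KO cells alike. In WT cells the rises ran from 2.14-fold for Dusp16 to 39.0-fold for Cish. Most genes differed under this treatment: in WT cells 79.5% of all tested genes were called (38.9% higher and 40.6% lower), and in KO cells 78.5% (37.5% higher and 41.0% lower), where called means an adjusted p (FDR) under 0.05. A call for a member is therefore close to what any gene had. The median signed log2 difference of the 10 members was 2.96 in WT and 3.19 in KO cells. Over all tested genes it was -0.02 and -0.03, where rises and falls offset each other. Sizes without regard to sign were not compared with those of all genes, and the members were chosen with earlier results of these data known.

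Among the SOCS genes, Cish (Entrez gene 12700, chr9:107296659-107302784, plus strand on mm10, whole gene), which binds activated cytokine receptors and is a textbook STAT5 target, had the largest log2 difference in WT cells. Untreated WT libraries held 0.401, 0.668 and 0.653 CPM of Cish, and those given Jurkat cells for 4 h held 21.1, 22.9 and 23.8 CPM. KO libraries went from 0.777, 1.10 and 0.801 CPM to 23.9, 24.2 and 28.3 CPM. The log2 difference was 5.29 (SE 0.193, FDR 1.68e-20) in WT and 4.83 (SE 0.177, FDR 2.21e-20) in KO cells. Socs1 (Entrez gene 12703, chr16:10783809-10785536), which blocks JAK kinases downstream of interferon receptors, stood at 3.18, 2.82 and 2.86 CPM in untreated WT libraries and at 73.0, 80.1 and 80.7 CPM after 4 h with Jurkat cells. KO libraries held 2.52, 2.63 and 2.79 CPM untreated and 75.5, 68.5 and 81.8 CPM after 4 h. Both genotypes thus ended in the same range, with log2 differences of 4.72 (SE 0.132, FDR 2.93e-23) and 4.83 (SE 0.133, FDR 2.56e-23).

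Socs3 (Entrez gene 12702, chr11:117966087-117969366), the inhibitor of gp130-type cytokine receptors, had the highest level per kilobase of the 4 member SOCS genes in untreated WT cells and after 4 h with Jurkat cells. In WT cells it went from 14.3, 16.7 and 15.3 CPM to 354, 370.1 and 355 CPM, a log2 difference of 4.54 (SE 0.0918, FDR 2.19e-26). In KO cells it started higher, at 23.1, 23.9 and 23.3 CPM, and reached 397, 387 and 411 CPM, a log2 difference of 4.09 (SE 0.0881, FDR 1.12e-25). Socs2 (Entrez gene 216233, chr10:95411490-95416857), best known for damping growth hormone receptor signals, rose from 12.0, 9.98 and 11.1 CPM to 75.9, 88.3 and 82.9 CPM in WT cells. KO libraries went from 9.13, 8.52 and 8.30 CPM to 77.0, 79.2 and 82.9 CPM. Its log2 differences were 2.90 (SE 0.0929, FDR 7.67e-22) in WT and 3.20 (SE 0.0952, FDR 1.43e-22) in KO cells.

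The phosphatases of the nucleus rose as well. Dusp2 (Entrez gene 13537, chr2:127336159-127338377), an activation-induced phosphatase of blood cells, went from 19.1, 20.8 and 21.8 CPM to 459, 449.9 and 472 CPM in WT cells. In KO cells it went from 19.6, 17.8 and 17.8 CPM to 477, 451 and 473 CPM. Its log2 differences of 4.48 (SE 0.0887, FDR 1.41e-26) and 4.67 (SE 0.0896, FDR 8.39e-27) were the largest among the 6 member phosphatases. Dusp5 (Entrez gene 240672, chr19:53529318-53541322), which acts on ERK, rose in WT cells from 29.5, 26.6 and 31.8 CPM to 227, 252 and 236 CPM. In KO cells it rose from 23.96, 22.9 and 23.96 CPM to 221, 202 and 222 CPM. The log2 differences were 3.02 (SE 0.0792, FDR 6.84e-24) and 3.19 (SE 0.0803, FDR 3.37e-24).

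Dusp4 (Entrez gene 319520, chr8:34807610-34819894), a nuclear phosphatase of ERK and JNK, stood at 2.45, 2.33 and 2.27 CPM in untreated WT libraries and at 17.6, 17.3 and 16.8 CPM after 4 h with Jurkat cells. In KO libraries it stood at 3.76, 3.63 and 2.95 CPM untreated and at 21.1, 23.1 and 19.4 CPM after 4 h, and the log2 differences were 2.87 (SE 0.125, FDR 1.16e-18) and 2.62 (SE 0.116, FDR 1.99e-18). Dusp1 (Entrez gene 19252, chr17:26505591-26508472), the immediate-early phosphatase that turns off p38 and JNK, went from 24.6, 26.9 and 28.1 CPM to 160.3, 167 and 161 CPM in WT cells. In KO cells it went from 25.3, 20.7 and 23.0 CPM to 162, 164 and 170.0 CPM. Log2 differences were 2.62 (SE 0.067, FDR 4.12e-24) and 2.85 (SE 0.0677, FDR 9.28e-25).

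Dusp16 rose least and Dusp6 fell. Dusp16 (Entrez gene 70686, chr6:134715468-134792628), a phosphatase of JNK and p38, went from 46.8, 48.1 and 49.0 CPM to 96.7, 113 and 99.4 CPM in WT cells and from 50.6, 50.7 and 48.9 CPM to 98.6, 96.1 and 95.4 CPM in KO cells. Its log2 differences were 1.10 (SE 0.0432, FDR 9.85e-20) and 0.95 (SE 0.043, FDR 3.37e-18). Dusp6 (Entrez gene 67603, chr10:99263231-99267489), the cytoplasmic phosphatase that acts on ERK, fell from 84.9, 82.1 and 75.8 CPM to 25.4, 27.1 and 26.01 CPM in WT cells. In KO cells it fell from 88.1, 86.0 and 86.1 CPM to 29.6, 30.8 and 34.4 CPM. Its log2 differences were -1.63 (SE 0.0542, FDR 1.82e-21) and -1.46 (SE 0.0528, FDR 1.62e-20), and it was the only member that was lower than untreated after 4 h of Jurkat cells. For each of the 10 genes, in either genotype, the libraries after 4 h of Jurkat cells did not overlap with the untreated ones. The share of all tested genes without such overlap was not counted, while 79.5% of them were called in WT and 78.5% in KO cells.

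The scaling of the libraries bears on these sizes. TMM factors were 0.765 to 0.842 in the 6 libraries of 4 h Jurkat and 1.03 to 1.07 in the other 24. With total counts in place of TMM, the median over all tested genes moved to -0.42 in WT and -0.37 in KO cells, and the split of calls moved to 24.1% higher and 59.1% lower in WT and to 23.9% higher and 58.0% lower in KO cells. The 9 rises and the Dusp6 fall stayed called under that scaling, but Dusp16 moved by over 1.5 times, to 0.70 (FDR 1.64e-16) in WT and 0.61 (FDR 3.84e-15) in KO cells. Without replicate 2 of the KO 4 h Jurkat group, the 10 log2 differences in KO cells ran from -1.44 (Dusp6) to 4.89 (Socs1), and all 10 were called.

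Transcripts of the T lineage moved with the Jurkat treatments. Of 20 T-lineage markers listed, 17 were in the table and 16 were tested. Their summed level was 86.9 to 92.5 CPM in untreated WT libraries and 161 to 194 CPM after 4 h with Jurkat cells; in KO libraries it was 99.7 to 107 CPM and 143 to 161 CPM. At 4 h, 13 of the 16 were called higher in WT (3 lower) and 10 in KO cells (4 lower). At 30 min of Jurkat cells the sums were 126 to 131 CPM in WT and 114 to 123 CPM in KO libraries. None of the 17 was at 0 in every library, though Cd3e, Cd247 and Themis were at 0 in at least 1. The monocyte or macrophage list had 7 of 10 markers higher and 2 lower at 4 h of Jurkat cells in each genotype, and its sum went from 980.2 to 1085 CPM in untreated WT libraries to 1526 to 1765 CPM. The neutrophil list had 3 higher and 3 lower in each genotype. The stromal list had 9 of 10 higher in WT and 10 of 10 in KO cells with none lower, and its sum went from 1017 to 1147 CPM in untreated WT libraries to 1450.0 to 1647 CPM. Of the 14 dendritic cell markers 7 were higher and 7 lower in WT cells, and 7 higher and 6 lower in KO cells. Their sum went from 18466 to 20914 CPM in untreated WT libraries to 30851 to 32359 CPM. In KO libraries it went from 18869 to 20449 CPM to 28861 to 30880 CPM. That sum rests mostly on Cd74 (8369 to 17734 CPM over the 30 libraries) and H2-Ab1 (4165 to 8952 CPM), followed by Irf8 (1621.5 to 2284 CPM). It does not stand for the list as a whole. The basophil or mast cell list had 1 of 8 higher in WT and 4 in KO cells. Over all tested genes 38.9% were called higher and 40.6% lower in WT cells at 4 h, and 37.5% and 41.0% in KO cells. How counting treated reads of the human cells is not given in the sources used here. The part of these lists in the SOCS and DUSP levels was not tested.

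The response to Jurkat cells at 30 min involved fewer of the genes. In WT cells 7 of the 10 were called, against 28.7% of all tested genes, and in KO cells 8, against 17.0%. Dusp1 led, with 96.3, 89.1 and 96.2 CPM in WT libraries after 30 min of Jurkat cells, above the untreated libraries by a log2 difference of 1.82 (SE 0.0662, FDR 2.68e-18). KO libraries held 77.1, 80.3 and 84.6 CPM, and the log2 difference was 1.81 (SE 0.067, FDR 4.46e-18). The 3 KO libraries thus lay below the 3 WT libraries while the change from untreated was close to the same.

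Socs3 rose at 30 min of Jurkat cells to 39.1, 38.5 and 40.7 CPM in WT and to 66.2, 48.3 and 53.0 CPM in KO libraries, with log2 differences of 1.35 (SE 0.0899, FDR 4.02e-12) and 1.25 (SE 0.085, FDR 8.09e-12). Dusp2 rose to 49.5, 53.6 and 49.9 CPM in WT and to 67.3, 49.9 and 59.8 CPM in KO libraries. The Dusp2 log2 difference was 1.31 (SE 0.0847, FDR 2.23e-12) in WT and 1.68 (SE 0.0852, FDR 1.33e-14) in KO cells. Dusp4 rose by 0.90 (FDR 1.64e-05) in WT and 0.80 (FDR 3.76e-05) in KO cells on the log2 scale. Dusp5 rose by 0.56 (FDR 4.64e-06) and 0.53 (FDR 2.49e-05).

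The remaining genes had small or library-dependent values at 30 min of Jurkat cells. Cish rose by 0.76 on the log2 scale in WT cells (FDR 0.0459) and by 0.96 in KO cells (FDR 0.0042). The WT call was lost without any of its 6 libraries (FDR 0.051 to 0.18), and the KO call without KO 30 min Jurkat replicate 1 (0.71, FDR 0.0583). Socs1 was called in KO cells (0.59, FDR 0.0154) and not in WT cells (0.18, FDR 0.487). Its KO libraries held 5.31, 3.03 and 3.67 CPM, and without the highest of them, replicate 1, the difference was 0.34 (FDR 0.207). Dusp16 was lower in WT cells by -0.13 (FDR 0.0268), a call lost without WT 30 min Jurkat replicate 1 (FDR 0.0585) or 2 (FDR 0.0991) or untreated WT replicate 2 (FDR 0.0633) or 3 (FDR 0.102). Dusp6 was lower in KO cells by -0.17 (FDR 0.0156), and not without KO 30 min Jurkat replicate 3 (FDR 0.0843). In WT cells Dusp6 was at 0.10 (FDR 0.115), and called without WT 30 min Jurkat replicate 2 (0.15, FDR 0.0437). Socs2 had values of -0.12 (FDR 0.442) in WT and 0.16 (FDR 0.352) in KO cells.

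**Figure D2:**
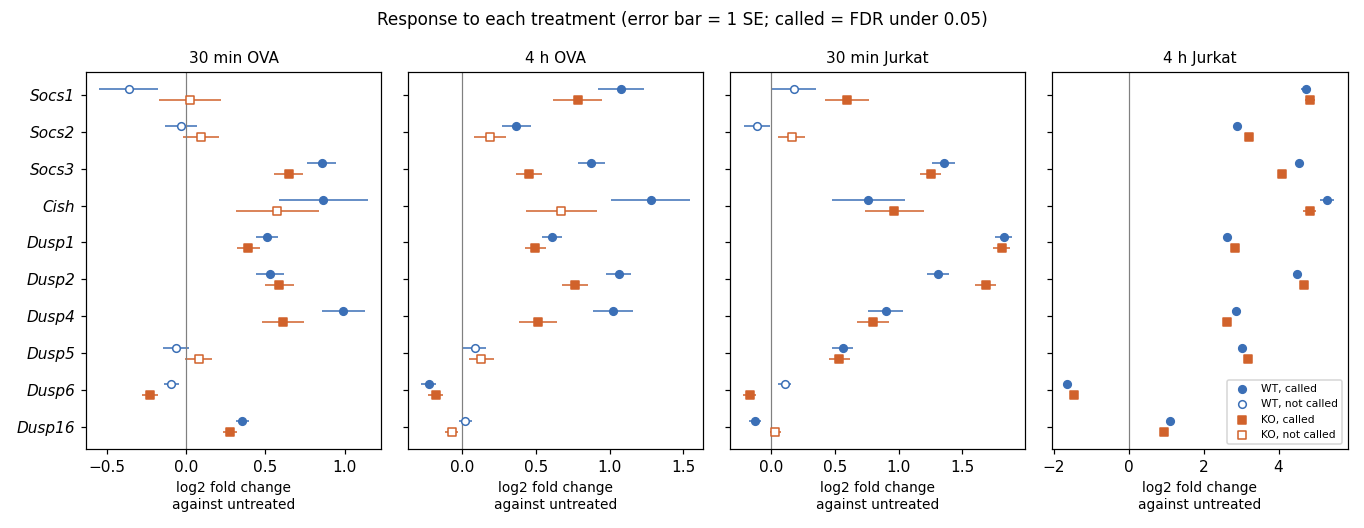
Log2 difference of each treatment from untreated cells of the same genotype, one panel per treatment with its own axis range; blue circles are WT, orange squares KO, open symbols did not pass FDR 0.05, and bars are 1 SE. At 4 h Jurkat the symbols run from -1.63 (Dusp6, WT) to 5.29 (Cish, WT), while the 2 OVA panels stay between -0.37 and 1.28.

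OVA gave smaller differences. After 30 min, 6 of the 10 were called in WT cells, against 10.7% of all tested genes, and 6 in KO cells, against 3.77%. Socs3 went to 30.3, 28.3 and 25.2 CPM in WT and to 32.5, 42.0 and 34.9 CPM in KO libraries, above untreated by 0.86 (SE 0.0915, FDR 2.78e-07) and 0.65 (SE 0.0898, FDR 4.57e-05) on the log2 scale. Dusp4 was at 4.95, 5.02 and 4.05 CPM in WT libraries, a log2 difference of 0.99 (FDR 1.69e-05). Its KO value was 0.61 (FDR 0.00754), which was not called without KO 30 min OVA replicate 2 (0.41, FDR 0.223) or untreated KO replicate 3 (0.51, FDR 0.0577). Dusp2 rose by 0.53 (FDR 0.00015) in WT and 0.59 (FDR 0.000204) in KO cells, and Dusp1 by 0.51 (FDR 9.43e-06) and 0.39 (FDR 0.00155).

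Dusp16 rose at 30 min of OVA, to 61.7, 62.7 and 59.5 CPM in WT and 60.2, 61.0 and 60.5 CPM in KO libraries. These 6 libraries lay above all 6 untreated libraries, with log2 differences of 0.35 (FDR 2.22e-06) and 0.28 (FDR 0.000298). By 4 h of OVA it was back at 47.7 to 49.5 CPM in WT and 45.7 to 48.8 CPM in KO libraries, and 4 h stood below 30 min by a log2 difference of -0.34 (FDR 1.8e-09, genotypes averaged). Cish had a log2 difference of 0.87 (FDR 0.0452) in WT cells at 30 min of OVA. That call was lost with 5 of its 6 libraries left out in turn (FDR up to 0.212, without WT 30 min OVA replicate 2); the other 4 were WT 30 min OVA replicate 3 and the untreated WT replicates 1, 2 and 3. Dusp6 was lower in KO cells (-0.23, FDR 0.00721), and not without KO 30 min OVA replicate 2 (FDR 0.0574). In KO cells the Cish value was 0.57 (FDR 0.253), and 0.95 (FDR 0.035) without KO 30 min OVA replicate 1. Socs1, Socs2 and Dusp5 were not called in either genotype at 30 min of OVA.

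After 4 h of OVA, 8 of the 10 were called in WT cells, against 23.5% of all tested genes, and 6 in KO cells, against 11.6%. Socs1 stood at 6.50, 6.50 and 5.78 CPM in WT libraries and at 4.82, 4.38 and 4.44 CPM in KO libraries, above untreated by 1.08 (SE 0.156, FDR 5.91e-06) and 0.78 (SE 0.167, FDR 0.00189) on the log2 scale. Dusp2 stood at 46.7, 44.8 and 37.6 CPM in WT and at 33.1, 29.2 and 31.6 CPM in KO libraries, with log2 differences of 1.06 (SE 0.0852, FDR 1.63e-10) and 0.77 (SE 0.0873, FDR 3.37e-07). Cish was at 1.48, 1.42 and 1.31 CPM in WT libraries (log2 difference 1.28, FDR 0.000645) and at 1.62, 1.39 and 1.22 CPM in KO libraries (0.67, FDR 0.0707). DESeq2 called the KO value for Cish (0.67, FDR 0.022).

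Socs3 and Dusp1 were not called between 30 min and 4 h of OVA, with -0.08 (FDR 0.311) and 0.10 (FDR 0.0984); Dusp1 was called without WT 30 min OVA replicate 1 (0.14, FDR 0.03). At 4 h of OVA Socs3 was above untreated by 0.88 (FDR 2.62e-08) in WT and 0.45 (FDR 0.000638) in KO cells, and Dusp1 by 0.61 (FDR 7.68e-08) and 0.50 (FDR 8.74e-06). Dusp4 was above untreated by 1.02 (FDR 1.84e-06) in WT and 0.52 (FDR 0.00758) in KO cells; the KO call was lost without KO 4 h OVA replicate 1 (0.43, FDR 0.0709) or untreated KO replicate 3 (0.42, FDR 0.064). Socs2 rose in WT cells by 0.37 (FDR 0.0072), a call lost without WT 4 h OVA replicate 1 (FDR 0.0625) or untreated WT replicate 2 (FDR 0.0559). Dusp6 was lower at 4 h of OVA by -0.22 (FDR 0.00122) in WT and -0.18 (FDR 0.0167) in KO cells. In KO cells the Dusp6 call was lost without KO 4 h OVA replicate 1 (FDR 0.0503) or 3 (FDR 0.0714) or untreated KO replicate 1 (FDR 0.0601). Dusp5 was not called against untreated at either time of OVA. Of the 10 monocyte or macrophage markers 6 were higher at 4 h of OVA in WT and 4 in KO cells, and their part in these values was not tested.

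Set directly against OVA at the same time, with the genotypes averaged, apoptotic cells differed for 7 of the 10 genes at 30 min (29.9% of all tested genes) and for all 10 at 4 h (82.6%). At 30 min Dusp1 had the largest gap, 1.37 on the log2 scale (SE 0.0471, FDR 8.07e-19), followed by Dusp2 at 0.94, Socs1 at 0.56, Socs3 at 0.55, Dusp5 at 0.54 and Dusp6 at 0.13 (FDR 1.11e-12 to 0.00653). Dusp16 went the other way, lower with Jurkat cells than with OVA by -0.36 (FDR 4.69e-10). Dusp4, Cish and Socs2 had differences of 0.05 (FDR 0.741), 0.14 (FDR 0.587) and -0.01 (FDR 0.955) at 30 min. At 4 h the gaps ran from 1.05 for Dusp16 to 4.08 for Cish, with Dusp6 at -1.34 (FDR 1.88e-23). The Dusp16 gap was 0.68 with total counts in place of TMM. Without KO 4 h Jurkat replicate 2 all 10 stayed called, from 1.05 (Dusp16) to 4.10 (Cish) for the 9 that were higher and -1.34 for Dusp6.

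The genes also differed in when they moved. From 30 min to 4 h of Jurkat cells all 10 changed, against 83.9% of all tested genes, and from 30 min to 4 h of OVA 4 did, against 34.2%. Socs1 and Socs2 rose late with Jurkat cells, by 4.39 (SE 0.0904) and 3.03 (SE 0.0665) on the log2 scale between the times, with Cish at 4.20, Dusp2 at 3.08 and Socs3 at 3.01. Dusp1 had the smallest further rise, 0.91 (SE 0.0435, FDR 6.64e-18), or 0.55 with total counts in place of TMM. Dusp6 fell between the times by -1.51 (SE 0.0379, FDR 8.09e-25). Without KO 4 h Jurkat replicate 2 all 10 stayed called, with rises of 0.91 (Dusp1) to 4.42 (Socs1) and Dusp6 at -1.50. In OVA the 4 called were Socs1 (1.10, FDR 4.37e-08), Dusp2 (0.36, FDR 3.23e-05), Dusp16 and Socs2 (0.25, FDR 0.0108), and the Socs2 call was lost without KO 30 min OVA replicate 1 (0.19, FDR 0.0767). Dusp5 was at 0.10 (FDR 0.188) and was called without KO 30 min OVA replicate 2 (0.16, FDR 0.0443).

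Between genotypes the clearest member was Socs3. It was higher in untreated KO than WT libraries (23.1, 23.9 and 23.3 against 14.3, 16.7 and 15.3 CPM), a log2 difference of 0.60 (SE 0.0925, FDR 4.88e-05) that was called without any 1 of the 6 libraries as well. It was higher in KO cells at 30 min of Jurkat cells (0.50, SE 0.0819, FDR 0.000171) and at 30 min of OVA (0.39, SE 0.0887, FDR 0.00341). The 30 min OVA call was lost without KO 30 min OVA replicate 2 (0.25, FDR 0.124). At 4 h the KO libraries were above the WT libraries with no overlap, but the differences were 0.18 (FDR 0.196) with OVA and 0.15 (FDR 0.164) with Jurkat cells. With total counts in place of TMM, the Socs3 difference at 4 h of Jurkat cells was 0.23 (FDR 0.0245). Fits of the compared groups alone called it at 4 h with OVA (FDR 0.0116) and with Jurkat cells (0.17, FDR 0.0161).

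In untreated cells 4 of the 10 genes were called between genotypes, against 9.97% of all tested genes. Beside Socs3, Dusp4 was higher in KO libraries (3.76, 3.63 and 2.95 against 2.45, 2.33 and 2.27 CPM) by 0.55 (SE 0.143, FDR 0.0114). Without untreated KO replicate 1 it was 0.48 (FDR 0.0713), and without untreated KO replicate 2 it was 0.51 (FDR 0.0512). Socs2 (9.13, 8.52 and 8.30 against 12.0, 9.98 and 11.1 CPM) was lower in KO libraries by -0.35 (FDR 0.0303). The call was lost without untreated WT replicate 1 (-0.29, FDR 0.141) or 3 (FDR 0.0779) or untreated KO replicate 2 (FDR 0.088) or 3 (FDR 0.0974). Dusp5 (23.96, 22.9 and 23.96 against 29.5, 26.6 and 31.8 CPM) was lower by -0.31 (FDR 0.0122), and not called without untreated WT replicate 3 (-0.25, FDR 0.0925) or untreated KO replicate 2 (FDR 0.0565). Dusp1 was at -0.21 (FDR 0.0605), and was called by DESeq2 (FDR 0.0242), with DESeq2's size factors (FDR 0.0433), and without untreated KO replicate 1 (FDR 0.0212) or untreated WT replicate 1 (FDR 0.031). Without untreated KO replicate 2, Socs3 was the 1 gene called, and without untreated WT replicate 3 there were 2.

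With OVA the called differences in KO cells were mostly lower values. At 30 min 2 of the 10 were called, against 12.4% of all tested genes: Socs3, and Dusp1, which was lower in KO libraries (28.4, 30.3 and 33.3 against 41.1, 36.1 and 35.9 CPM) by -0.32 (SE 0.0704, FDR 0.00249). At 4 h 5 were called, against 12.6%, and all 5 were lower in KO cells. Socs2 (9.30, 10.003 and 10.4 against 15.9, 13.8 and 13.1 CPM) was lower by -0.53 (SE 0.101, FDR 0.000482), Dusp2 by -0.46 (SE 0.0826, FDR 0.000264) and Dusp1 (35.4, 30.5 and 31.3 against 40.5, 42.5 and 38.4 CPM) by -0.32 (SE 0.0666, FDR 0.00134). Socs1 was lower by -0.45 (FDR 0.0382) and Dusp5 by -0.27 (FDR 0.0273). Calls for both were lost without any of KO 4 h OVA replicates 1, 2 and 3 and WT 4 h OVA replicates 1 and 2 (Socs1 FDR 0.0726 to 0.12, Dusp5 FDR 0.0603 to 0.0965), which left 3 genes called. The Socs1 call was also lost with total counts (FDR 0.0542), with DESeq2 (FDR 0.0621) and with a replicate block (FDR 0.0507). Dusp6 was higher in KO libraries with no overlap, by 0.15 (FDR 0.0505), and was called with total counts (0.18, FDR 0.0127), with a stricter filter (FDR 0.0321) and with these groups alone (FDR 0.00435).

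**Figure D3:**
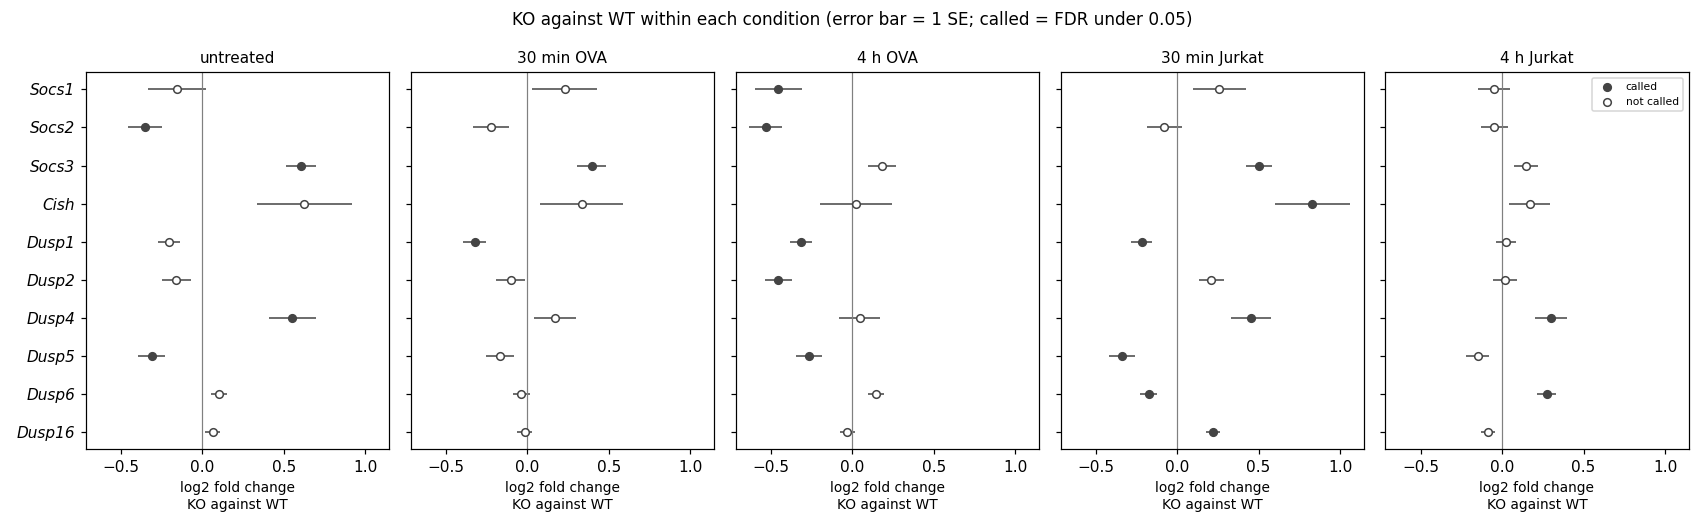
Log2 difference of KO from WT cells for each gene within each of the 5 conditions; filled symbols passed FDR 0.05, open ones did not, and bars are 1 SE. Socs3 is right of 0 in all 5 panels, from 0.15 to 0.60, and Socs2 is left of 0 in all 5, from -0.53 to -0.05.

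At 30 min of Jurkat cells 7 of the 10 genes were called between genotypes, against 9.25% of all tested genes, 4 higher and 3 lower in KO cells. Cish (2.32, 1.74 and 1.17 against 0.941, 1.15 and 0.864 CPM) was higher by 0.83 (SE 0.23, FDR 0.021), Dusp4 (6.13, 5.33 and 6.53 against 4.00, 4.38 and 4.71 CPM) by 0.45 (FDR 0.0171) and Dusp16 (53.2, 49.1 and 50.9 against 44.1, 42.9 and 44.5 CPM) by 0.22 (FDR 0.00144), beside Socs3. Dusp5 (39.9, 30.5 and 32.0 against 44.4, 42.7 and 42.3 CPM) was lower by -0.34 (FDR 0.00542), Dusp1 by -0.22 (FDR 0.0234) and Dusp6 by -0.18 (FDR 0.0229). KO and WT libraries did not overlap for any of these 7 genes, but the share of all tested genes without overlap was not counted. Only the calls for Socs3 and Dusp16 were kept without any 1 of the 6 libraries. Cish was at 0.57 (FDR 0.153) without KO 30 min Jurkat replicate 1, and was not called without WT 30 min Jurkat replicate 1 (FDR 0.067) or 3 (FDR 0.0839). Dusp5 was lost without KO replicate 2 (FDR 0.0528) and Dusp4 without KO replicate 3 (FDR 0.0972) or WT replicate 1 (FDR 0.0845) or 2 (FDR 0.0565). Dusp6 was lost without KO replicate 3 (FDR 0.136) or WT replicate 1 (FDR 0.0737) or 3 (FDR 0.126), and Dusp1 without KO replicate 1 (FDR 0.0927) or 2 (FDR 0.0667) or WT replicate 1 (FDR 0.0881) or 3 (FDR 0.0853). The number called was 3 without WT replicate 1, 4 without WT replicate 3, and 4 in a fit of these groups alone. Dusp2 was at 0.21 (FDR 0.0975), and at 0.32 (FDR 0.00824) without KO replicate 2.

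At 4 h of Jurkat cells 2 of the 10 were called between genotypes, against 22.9% of all tested genes. Dusp6 was higher in KO cells (29.6, 30.8 and 34.4 against 25.4, 27.1 and 26.01 CPM), a difference of 0.27 (SE 0.0569, FDR 0.000827) that was 0.29 (FDR 0.00232) without the KO library that stood apart. Dusp4 (21.1, 23.1 and 19.4 against 17.6, 17.3 and 16.8 CPM) was higher by 0.30 (SE 0.101, FDR 0.031). Without that KO library, replicate 2, it was 0.23 (FDR 0.162), and it was not called without KO replicate 1 (FDR 0.064) or WT replicates 1 (FDR 0.0561), 2 (FDR 0.0772) or 3 (FDR 0.0909) either. That left 1 gene called without KO replicate 1 or 2 or WT replicate 2 or 3, and without WT replicate 1 the second gene was Dusp16 (-0.13, FDR 0.031). Socs1, Socs2, Dusp1 and Dusp2 had differences of -0.05 to 0.02 (FDR 0.725 to 0.878), and of -0.04 to 0.05 (FDR 0.774 to 0.952) without KO replicate 2. Cish (0.17, FDR 0.356), Dusp5 (-0.15, FDR 0.13) and Dusp16 (-0.09, FDR 0.132) were not called either, and without KO replicate 2 stood at 0.21 (FDR 0.361), -0.11 (FDR 0.39) and -0.08 (FDR 0.25). Without that library Socs3 was at 0.17 (FDR 0.19).

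Markers of other cells differed between genotypes beside these genes. The basophil or mast cell list had 8 tested members, of which 7 were called higher in untreated KO cells and at both times of OVA and 8 at both times of Jurkat cells. Its summed level was 146 to 167 CPM over the WT libraries and 195 to 259 CPM over the KO libraries, with Kit alone at 119 to 153 CPM, and Il4 and Tpsb2 were at 0 in at least 1 library. The stromal list had 6 to 8 of 10 members higher in KO cells in the 5 conditions, with untreated sums of 1017 to 1147 CPM in WT and 1295 to 1691 CPM in KO libraries. Of 16 tested T-lineage markers 4 were higher in untreated KO cells and 4 were lower in KO cells at 4 h of Jurkat cells. Neutrophil markers were called lower in KO cells for 0 to 5 of 10 and monocyte or macrophage markers for 1 to 4 of 10 across the conditions, with at most 1 of each list higher. Of the 14 dendritic cell markers 3 were lower in KO cells under 30 min Jurkat and 5 under each of the other 4 conditions, with 0 to 2 higher. Their part in the genotype differences of the SOCS and DUSP genes was not tested.

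A difference in response was tested directly, as the change from untreated in KO minus that in WT cells. At 4 h of Jurkat cells 5 of the 10 genes had an unadjusted p under 0.05, and DESeq2 called 1. By edgeR's quasi-likelihood test 1 was called, Socs3, with -0.46 (SE 0.119, FDR 0.0262), against 4.26% of all tested genes. This is the smaller rise of Socs3 in KO cells, which began at a higher level and whose 4 h libraries lay at 387 CPM or more against at most 370.1 CPM in WT. The call was lost without untreated WT replicate 1 (-0.40, FDR 0.0693) or 3 (FDR 0.0557), untreated KO replicate 2 (FDR 0.0606), WT 4 h Jurkat replicate 2 (FDR 0.0619) or KO 4 h Jurkat replicate 2 (-0.44, FDR 0.0558). At 30 min of OVA none of the 10 was called by edgeR's quasi-likelihood test (0.0% of all tested genes), 0 had an unadjusted p under 0.05, and DESeq2 called 0. At 4 h of OVA none was called (0.0405%), 3 had an unadjusted p under 0.05 and DESeq2 called 0. Socs3 had a difference of -0.42 there (SE 0.126, FDR 0.367), close in size to its value for 4 h of Jurkat cells. At 30 min of Jurkat cells none was called (0.00675%), 3 had an unadjusted p under 0.05 and DESeq2 called 0. The smallest p there was that of Dusp6, with a difference of -0.28 (FDR 0.315). Next came Dusp2 with 0.37 (FDR 0.427) and Dusp16 with 0.16 (FDR 0.54). Without KO 30 min Jurkat replicate 2 the Dusp2 difference was 0.48 (FDR 0.027).

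The likeness of other genes to each member was measured as the Pearson correlation of mean log2 CPM over the 10 groups, among 3395 genes with at least 5 CPM in 1 group and a range of at least 1 on the log2 scale. The 10 points share libraries and scaling, and 4 h Jurkat dominates, so each r is also given over the 8 groups without it. Dusp1 was closest to Il10, the anti-inflammatory cytokine, and Adgrb2 (both r = 0.98, and 0.96 and 0.95 over 8 groups). Dusp2 was closest to Ptgs2, the inducible prostaglandin synthase, and Ccl3, a chemokine (r = 0.996 and 0.995, and 0.97 and 0.96 over 8 groups). Socs1 was closest to Gbp5, an interferon-induced GTPase, and Mthfs (both r = 0.997, and 0.95 and 0.99 over 8 groups). Socs3 was closest to Chst11 and the transcription factor gene Ets2 (r = 0.993 and 0.992, and 0.94 and 0.92 over 8 groups). Dusp4 was closest to Il1bos and Ets2 (r = 0.989 and 0.985, and 0.93 and 0.91 over 8 groups). For Cish the closest were Lilr4b and Sbf2, for Socs2 Foxp4 and Sema4a, for Dusp5 Srgn and Ms4a4b, for Dusp16 Dennd4a and Rnf24, and for Dusp6 Tprgl and 5830432E09Rik, with r of 0.984 to 0.998 over 10 groups and 0.86 to 0.95 over 8.

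Among the members, the highest r over the 8 groups without 4 h Jurkat were those of Cish with Dusp4 (0.96), Dusp1 with Dusp2 (0.92), Dusp1 with Dusp5 (0.90) and Socs3 with Dusp4 (0.90). Socs3 also had an r of 0.83 with Cish, 0.81 with Dusp2 and 0.75 with Dusp1, and Dusp2 had 0.78 with Dusp5, 0.69 with Dusp4 and 0.64 with Cish. Socs1 and Socs2 had an r of 0.61, while Socs1 with Dusp16 had -0.60 and Socs2 with Dusp6 had -0.63. These are descriptions over 8 points and carry no test.

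Other genes of the same pathways were read from lists. At 4 h of Jurkat cells 38.9% of all tested genes were called higher and 40.6% lower in WT cells, and 37.5% and 41.0% in KO cells. The 11 JAK and STAT genes, through which SOCS proteins are induced and on which they act, were all called higher at 4 h of Jurkat cells in WT and in KO cells. The median log2 difference was 1.16 in WT cells, and the genes include Stat5a (2.27), Stat2 (2.24) and Jak2 (1.92), named by p and not by size. At 30 min of Jurkat cells 7 of the 11 were called lower in WT cells and none higher, with a median of -0.14, against 14.5% of all tested genes called lower. In KO cells 1 of the 11 was lower, with a median of -0.07, against 8.26% of all tested genes. Set directly against WT at 30 min of Jurkat cells, 1 of the 11 was called, lower in KO cells, against 9.25% of all tested genes. The KO libraries were more spread there, with SDs of 32.1 CPM for Stat2 and 34.6 CPM for Jak2. In WT libraries these SDs were 2.41 and 11.8 CPM. Of the 16 tested MAP kinases and their upstream kinases, 3 were higher and 9 lower at 4 h of Jurkat cells in WT cells, including Map2k1, an activator of ERK (1.30), and Map2k6 and Mapk14, the p38 activator and p38 alpha (-3.08 and -1.62). Of the other 4 SOCS genes tested, Socs7 was higher (0.77) and Socs5 and Socs6 were lower (-0.85 and -0.28) at 4 h of Jurkat cells in WT cells.

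Of the other 4 MAP kinase phosphatases, 3 were higher at 4 h of Jurkat cells in WT cells, Dusp8 (2.80), Dusp9 (0.92) and Dusp10 (0.81), and 1 was lower. Of 9 tested atypical dual-specificity phosphatases 3 were higher and 5 lower, with Dusp14 at 5.24, Dusp22 at -1.69 and Dusp3 at -0.61. The Dusp14 and Dusp8 values start from low levels, with means of 0.107 and 0.572 CPM in untreated WT libraries. After 4 h of Jurkat cells these means were 4.15 and 4.05 CPM. Of 8 other inhibitors of the ERK pathway 4 were higher, including Ier3 (2.74), Spred1 (1.97) and Spry4 (1.48), and 1 was lower. Of 10 other inhibitors of JAK-STAT signalling 5 were higher and 3 lower. The higher ones include Usp18, which binds the type I interferon receptor (4.47), and the phosphatase gene Ptpn2 (1.11), and Sh2b3 was lower (-0.78). Usp18 was lower in untreated KO than WT cells by -1.14 (FDR 0.000712), while Socs1 in the same libraries had a difference of -0.16 (FDR 0.687). The counts at 4 h of Jurkat cells in WT cells stand beside 38.9% higher and 40.6% lower among all tested genes. These lists were chosen with results of these data known, and nothing is read from them beyond the counts.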

How the data were processed

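RNA was sequenced from 30 libraries in 10 groups. Per the labels' protocols, Trizol and column extraction with DNase preceded TruSeq v2 library preparation. The deposited values are whole-number counts of reads per gene, with nothing normalized; the submitters' processing notes name STAR 2.5, Subread, featureCounts 1.5.0-p1, DESeq2 and the build mm10. The annotation, the strand setting and the handling of human reads were not given in the sources used here, so reads of overlapping or antisense genes cannot be told apart from those of a member.

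From these counts a quasi-likelihood model was fitted with edgeR 4.0.16 (limma 3.58.1, R 4.3.3): 1 mean per group over all 30 libraries, TMM scaling, and edgeR's filter on low counts, which kept 14808 of 25611 genes and 99.99% of counts. FDR is the Benjamini-Hochberg adjusted p over those genes within each of 21 comparisons, called under 0.05. Standard errors (SE) are the log2 difference over the root of the F statistic. The common biological coefficient of variation was 0.0515. The code was tested on simulated data. Alternatives were DESeq2 1.42.0, its size factors, total counts, no filter, a filter of 5 CPM in 3 libraries, the compared groups alone, a replicate block and leaving out each library.

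All 10 members were named in every comparison. From each pathway list up to 3 called genes with the smallest p in the 4 h Jurkat or 4 h OVA response of WT cells or in untreated KO against WT were eligible to be named, and the 2 genes most like each member were named. Members, lists and rules were chosen with earlier results of these data known.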

Additional observations from a re-analysis of the deposited data

Results flagged for a closer look

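Socs3 was singled out because its response to 4 h of apoptotic Jurkat cells differed between genotypes in a test of that difference, -0.46 on the log2 scale (SE 0.119, FDR 0.0262, edgeR's quasi-likelihood test). It rose by 4.54 in WT and 4.09 in KO cells, from untreated means of 15.4 ± 1.21 and 23.5 ± 0.397 CPM to 359.8 ± 8.95 and 398 ± 12.0 CPM (SD, n = 3). Over 12 fits that each left out 1 library the difference was -0.52 to -0.40 (FDR 0.029 to 0.0693). The same difference for 4 h of OVA was -0.42 (SE 0.126, FDR 0.367).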

How the results depend on the processing

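Of 210 values (10 genes in 21 comparisons) 113 were called. Of those, 9 lost the call under at least 1 alternative other than leaving out a library, and 25 lost it without at least 1 library. A further 5 were called only under such an alternative. No value called in any fit changed sign; of the 85 never called, 24 did. In the fit of the compared groups alone, 4 in place of 7 members were called for KO against WT at 30 min of Jurkat cells, and calls were also lost in WT cells for Dusp16 at 30 min of Jurkat cells (FDR 0.0506) and Cish at 30 min of OVA (0.86, FDR 0.0547) and, in KO cells, for Socs1 at 30 min of Jurkat cells (FDR 0.0736) and Dusp4 at 30 min of OVA (FDR 0.0759), while Cish at 4 h of OVA in KO cells was gained (0.68, FDR 0.0336). Leaving out 1 library at a time gave 1 to 4 members called between genotypes untreated, 1 to 2 at 30 min of OVA, 3 to 5 at 4 h of OVA, 3 to 6 at 30 min of Jurkat cells and 1 to 2 at 4 h, and 0 to 1 for the difference in response to 30 min and to 4 h of Jurkat cells.

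The labels do not say whether replicate numbers pair the samples, and the libraries did not settle it. Same-numbered libraries of a genotype had deviations correlated above 0.1 in 22 of 60 pairs (median 0.0357). For libraries of a genotype with unlike numbers it was 30 of 120 pairs (median -0.0133). Each library could match any of 3 replicate numbers, and 16 of the 30 libraries correlated best with their own number. With the replicate block Cish lost its calls in WT cells at 30 min of OVA (0.87, FDR 0.0567) and of Jurkat cells (0.76, FDR 0.0559), as did Socs1 for KO against WT at 4 h of OVA (-0.45, FDR 0.0507). The causes were not tested. Cish was counted 18 to 32 times in untreated WT libraries.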
